A study of Mus musculus with 6 samples.

Results

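The genes described are 9 lineage factors, receptors and endocytic proteins of the primitive endoderm: Gata4, Gata6, Sox7, Sox17, Dab2, Pdgfra, Amn, Cubn and Lrp2. They were named by symbol, without the matrix genes of the lineage, and all 9 were found among the 22180 mouse genes measured, each by 1 row of the value table. The samples were embryonic stem cells (ESCs) labelled Dgcr8-/-, so both groups lack Dgcr8, the partner of the Drosha nuclease, and with it the processing of canonical miRNAs. Of 6 samples, 3 are controls with a control hairpin and 3 expressed a mimic of miR-302 from a hairpin construct (sh-miR-302). The labels name neither a promoter nor a clone nor a time of culture. The series' design text describes the samples of each group as biologically independent. Values are taken as log2 expression, with the base assumed, so a difference of 1 is a doubling, and the number of arrays limits their precision. The control hairpin is the background against which every difference is given.

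The primitive endoderm is the extraembryonic layer that separates from the epiblast in the inner cell mass of the blastocyst. FGF signalling from epiblast precursors keeps the zinc finger factor GATA6 on in the future endoderm, and SOX17, GATA4 and SOX7 follow, while NANOG holds the epiblast fate. PDGFRA, a receptor tyrosine kinase, marks the lineage early. Its later derivative, the visceral endoderm, takes up maternal nutrients through the large receptors megalin (Lrp2) and cubilin (Cubn). Cubilin has no membrane anchor of its own and reaches the surface with amnionless (Amn), and DAB2 couples megalin to the clathrin coat. Embryonic stem cells correspond to the epiblast side of this choice and express these genes little unless they differentiate.

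Mature sequences of the mouse miR-302 family are shown, since the labels give miR-302 without naming a family member. Those of miR-302b, miR-302c and miR-302d, taken from RefSeq (GRCm38.p6), are printed from their 5′ end, with the seed, bases 2 to 8, in capitals. That of miR-302a was not used here, and which sequence the mimic carries was not checked.
mmu-miR-302b-3p: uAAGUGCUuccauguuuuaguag
mmu-miR-302d-3p: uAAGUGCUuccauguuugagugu
mmu-miR-302c-3p: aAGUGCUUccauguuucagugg
The first and the second of these share the seed AAGUGCU, and the third, which starts 1 base further in, has AGUGCUU. Whether transcripts of the 9 genes hold sites for these seeds was not analysed here.

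With miR-302 the receptors and the lineage factors did not move as 1 group. Lrp2, Pdgfra and Dab2 were higher, by 1.79-fold, 1.79-fold and 1.55-fold. Cubn and Gata4 were lower, by 1.41-fold and 1.35-fold, and Gata6, Sox17, Sox7 and Amn did not pass the test (limma, adjusted p under 0.05 over all genes). In this fit, which gave all 6 arrays equal weight, none of the 4 transcription factor genes was called higher. Thus 3 of the 9 genes were called higher and 2 lower, where 7.18% of all 22180 genes were called higher and 9.25% lower, 16.4% in either direction. The same 5 genes are those whose groups did not overlap, as was the case for 35.8% of all genes. The median log2 difference of the 9 genes was 0.28, against 0.01 over all genes. The 9 genes were chosen with earlier results of these data known, so these comparisons with all genes are descriptions only. In bulk samples, more cells of a type and more RNA per cell cannot be told apart.

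**Figure D1:**
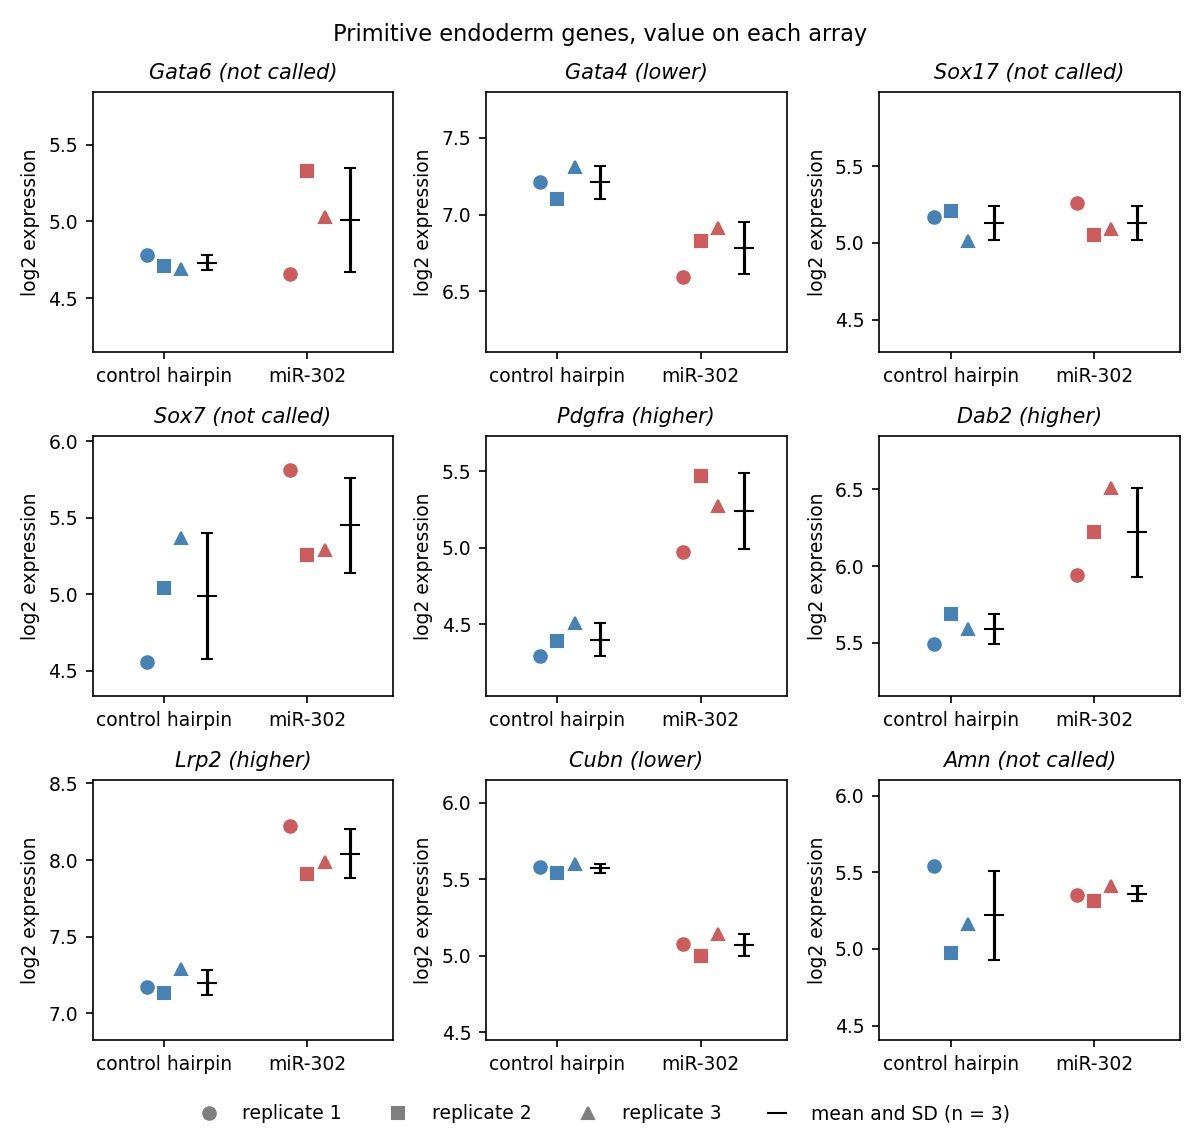
Log2 expression of the 9 genes on each of the 6 arrays, with control hairpin in blue and miR-302 in red. Marker shapes give the replicate number, and black bars give the mean and SD of 3 arrays; each panel spans the same height on the log2 axis. The groups are apart for Gata4, Pdgfra, Dab2, Lrp2 and Cubn and overlap for Gata6, Sox17, Sox7 and Amn.

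Before the single genes, some facts of the arrays bear on them. Replicate 1 of miR-302 stood apart: over all genes the SD of its difference from either of the other miR-302 arrays was 0.34, against 0.20 between those 2 and 0.20 to 0.22 among the controls. It also lay nearer to the controls, with an SD of 0.39 to 0.40, against 0.45 to 0.47 for the other miR-302 arrays. Epiblast factors such as Nanog and Pou5f1, which mark the labelled cell type, had a mean log2 level over 8 genes of 10.48 to 10.50 on the control arrays and 10.11 to 10.50 with miR-302. The 10.50 with miR-302 was that of replicate 1, and the other miR-302 arrays lay below every control array. This is a mean of the list: Nanog and Pou5f1 themselves differed by −0.11 and 0.04 and were not called. The 8 log2 differences ran from −0.82, that of Klf2, to 0.28. Of the 9 primitive endoderm genes, 7 had a mean below the median gene level of 6.16, and Gata4 and Lrp2 lay above it. No detection calls were used here, so whether those 7 genes were above background is not known.

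Of the lineage factors, Gata6 stands first in the cascade, and its values were uneven with miR-302. Its log2 values were 4.78, 4.71 and 4.69 on control arrays 1, 2 and 3, and 4.66, 5.33 and 5.03 with miR-302. Replicate 1 of miR-302 lay below every control and the other 2 lay above them. The log2 difference was 0.28 (95% CI −0.11 to 0.67, adjusted p = 0.304), so the interval runs from 0.929-fold to 1.59-fold. Leaving out that array gave 0.45, which was called (adjusted p = 0.028).

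Gata4, a second zinc finger factor of the lineage that is also active in heart and gut, was lower. It gave 7.21, 7.10 and 7.31 in control cells and 6.59, 6.83 and 6.91 with miR-302, and every miR-302 value lay below every control. The means were 7.21 ± 0.11 (SD, n = 3) and 6.78 ± 0.17, a log2 difference of −0.43 ± 0.11 (SE; limma, adjusted p = 0.0375). Of the 6 fits on 5 arrays, 5 lost this call, and it held without miR-302 replicate 1, where the difference was −0.34.

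Sox17 and Sox7 encode related HMG box factors of the SOX F group. Sox17 gave 5.17, 5.21 and 5.01 in control cells and 5.26, 5.05 and 5.09 with miR-302, with the arrays of the groups interleaved. Its difference was 0.00, with a 95% CI from −0.21 to 0.22, which spans 0.862-fold to 1.17-fold (adjusted p = 0.987). Sox7 had the widest spread of the 9 genes in the controls, at 4.56, 5.04 and 5.37, and read 5.81, 5.26 and 5.29 with miR-302. The highest control exceeded 2 of the 3 miR-302 arrays. Its difference of 0.46 had a 95% CI from −0.09 to 1.02 (adjusted p = 0.243), and ranged from 0.25 to 0.65 as single arrays were left out, without a call in any of the 6 fits.

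Pdgfra, the receptor that binds PDGF-A and PDGF-C and is also found on mesoderm and fibroblasts, was higher. It read 4.29, 4.39 and 4.51 in control cells and 4.97, 5.47 and 5.27 with miR-302. The lowest miR-302 array, replicate 1, was 0.46 above the highest control. The means were 4.40 ± 0.11 (SD, n = 3) and 5.24 ± 0.25, and the log2 difference was 0.84 ± 0.14 (SE; adjusted p = 0.00904), larger in size than that of all but 3.86% of genes. The call held in all 6 fits with 1 array left out, with differences between 0.72 and 0.97. Its level lies below the median gene even with miR-302.

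Dab2, the clathrin adaptor first described as a tumour suppressor candidate, was higher too. Control arrays 1, 2 and 3 gave 5.49, 5.69 and 5.59, and the miR-302 arrays 5.94, 6.22 and 6.51, so that all miR-302 arrays were above all controls. The log2 difference was 0.63 ± 0.15 (SE; adjusted p = 0.0304). Its call was lost in 5 of the 6 fits with 1 array left out, all except that without miR-302 replicate 1, where the difference was 0.78.

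Lrp2, which encodes megalin, had the smallest adjusted p of the 9 genes. Its values were 7.17, 7.13 and 7.29 in control cells and 8.22, 7.91 and 7.99 with miR-302. The gap of 0.62 between the groups was larger than the range within either group, 0.16 and 0.31. The means were 7.20 ± 0.08 (SD, n = 3) and 8.04 ± 0.16, a log2 difference of 0.84 ± 0.10 (SE; adjusted p = 0.00349), which 3.84% of genes exceeded in size. Here miR-302 replicate 1 was the highest array, opposite to Pdgfra and Dab2, where it was the lowest of the miR-302 arrays. The call held in all 6 fits with 1 array left out, with differences from 0.75 to 0.91.

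Cubn, the co-receptor of megalin, moved the other way. Control arrays gave 5.58, 5.54 and 5.60 and miR-302 arrays 5.08, 5.00 and 5.14, the tightest groups among the 5 called genes. The means were 5.57 ± 0.03 (SD, n = 3) and 5.07 ± 0.07, a log2 difference of −0.50 ± 0.07 (SE; adjusted p = 0.0057). It kept its call in all 6 fits with 1 array left out, between −0.53 and −0.46. Both groups lie below the median gene. Amn, which carries cubilin to the cell surface, gave 5.54, 4.97 and 5.16 in control cells and 5.35, 5.31 and 5.41 with miR-302. The miR-302 arrays fell inside the control range, and the difference of 0.13 (95% CI −0.21 to 0.48) did not pass the test (adjusted p = 0.6).

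**Figure D2:**
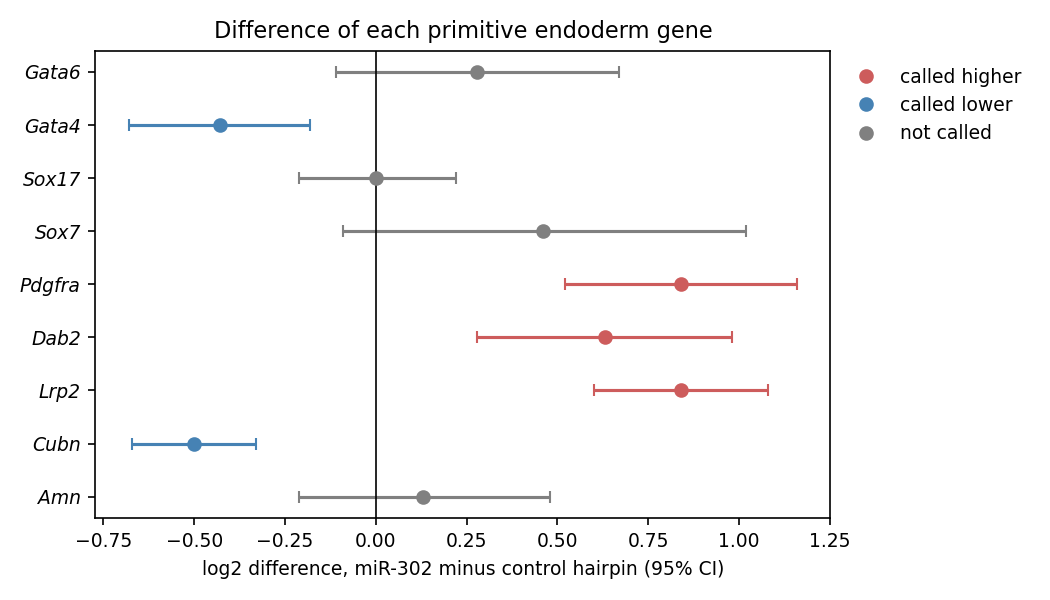
Log2 difference of each gene, miR-302 minus control hairpin, from the fit across all 22180 genes, with its 95% confidence interval. Intervals of Pdgfra, Dab2 and Lrp2 lie above 0, those of Gata4 and Cubn below it, and those of Gata6, Sox17, Sox7 and Amn include it.

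The number of genes called changed with single arrays. Without control replicate 1, 2 or 3 or miR-302 replicate 2 or 3, Pdgfra and Lrp2 were called higher and Cubn lower, 3 of the 9 genes, while 7.79%, 8.03%, 7.86%, 9.36% and 8.75% of all genes were called. Without miR-302 replicate 1, Gata6 joined the 5 genes called with all arrays, making 4 higher and 2 lower, and 24.3% of all genes were called. Pdgfra, Lrp2 and Cubn were thus called in each of these 6 fits, Gata4 and Dab2 in 1, and Sox17, Sox7 and Amn in none.

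**Figure D3:**
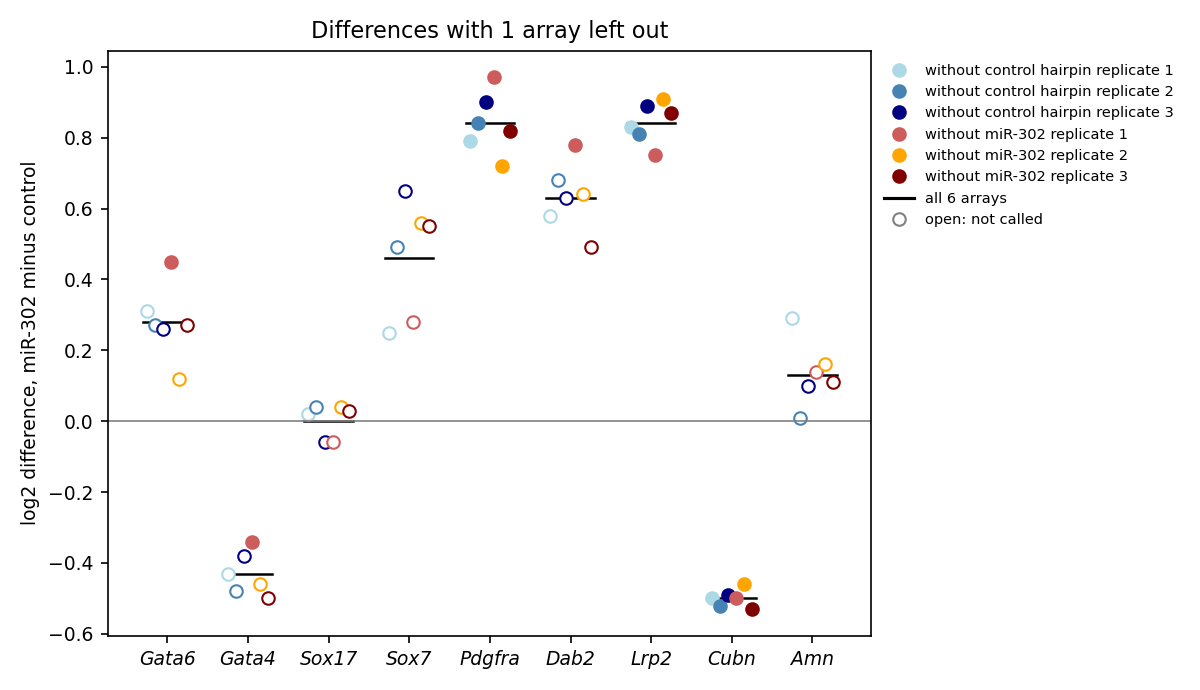
Log2 difference of each gene, miR-302 minus control, in the 6 fits that each left out 1 array (points) and with all 6 arrays (black bars). Filled points passed the adjusted threshold and open points did not; Pdgfra, Lrp2 and Cubn are filled throughout, and Gata6, Gata4 and Dab2 only without miR-302 replicate 1.

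The upstream sequences of 4 of the 5 called genes are shown to set Lrp2 and Cubn, which moved in opposite directions, beside Pdgfra and Dab2. Start sites from RefSeq (GRCm38.p6) were used for 5 of the 9 genes, Amn, Cubn, Dab2, Lrp2 and Pdgfra, with 2 for Dab2; those of Gata4, Gata6, Sox7 and Sox17 were not used here. The 250 bases before each start are printed 5′ to 3′ along the gene. They were searched on both strands for the GATA factor words AGATAA or AGATAG and TGATAA or TGATAG, the SOX core ACAAT, the TATA box TATAAA and the CCAAT box, none of which contains another. Matches are in capitals.
Lrp2, chr2:69586030-69586279, - strand: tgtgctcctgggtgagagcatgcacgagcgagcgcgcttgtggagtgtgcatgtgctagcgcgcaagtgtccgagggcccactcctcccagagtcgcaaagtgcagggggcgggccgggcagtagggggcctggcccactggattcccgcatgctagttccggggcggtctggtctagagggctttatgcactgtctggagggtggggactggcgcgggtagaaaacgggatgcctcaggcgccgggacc
Cubn, chr2:13491877-13492126, - strand: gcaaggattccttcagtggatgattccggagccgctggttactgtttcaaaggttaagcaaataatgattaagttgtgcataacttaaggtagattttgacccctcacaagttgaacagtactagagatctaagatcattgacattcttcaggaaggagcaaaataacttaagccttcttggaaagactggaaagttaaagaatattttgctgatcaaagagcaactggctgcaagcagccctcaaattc
Pdgfra, chr5:75152001-75152250, + strand: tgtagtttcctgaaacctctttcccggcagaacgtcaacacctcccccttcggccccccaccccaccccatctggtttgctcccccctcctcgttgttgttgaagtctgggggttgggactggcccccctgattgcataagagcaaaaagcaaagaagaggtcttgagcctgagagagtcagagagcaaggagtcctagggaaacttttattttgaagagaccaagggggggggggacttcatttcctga
Dab2, chr15:6299539-6299788, + strand: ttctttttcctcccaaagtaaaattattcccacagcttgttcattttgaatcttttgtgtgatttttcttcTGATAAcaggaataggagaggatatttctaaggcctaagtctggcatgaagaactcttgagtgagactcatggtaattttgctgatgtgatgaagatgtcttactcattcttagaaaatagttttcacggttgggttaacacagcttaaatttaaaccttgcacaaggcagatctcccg
Of the 2 Dab2 windows, the printed one holds 1 GATA word, TGATAA, 179 to 174 bases before its start. The other 3 windows printed hold none of the words, nor does that of the other Dab2 start, while that of Amn holds a CCAAT box. Among the 32851 start windows of the table, 26.5% hold a GATA word, 27.7% the SOX core, 12.4% the TATA box and 33.8% the CCAAT box. Base composition differed between the megalin and cubilin genes: the Lrp2 window was 66.4% G and C with 18 CpG pairs and the Cubn window 39.6% with 2, against medians of 52.4% and 6. It also differed between the Dab2 windows, at 36.8% with 2 for the printed window and 60% with 17 for the other. Which start is used in these cells was not measured, and a match of letters is a description only.

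The surroundings of the 9 genes were followed in 14 further lists, also chosen with earlier results of these data known. Their counts stand beside 7.18% of all genes called higher and 9.25% lower with all arrays. Without miR-302 replicate 1, the share of all genes called in either direction was 24.3%, against 16.4% with all arrays, so list counts from that fit are not directly comparable. Of 6 measured transcription factors of primitive or visceral endoderm, 3 were higher and none lower, with a median log2 difference of 0.18. Otx2, a homeobox factor of anterior visceral endoderm that epiblast cells also express, went from 8.24 ± 0.05 (SD, n = 3) to 9.01 ± 0.29 (adjusted p = 0.015). Lhx1 and Foxa2 rose by 0.48 and 0.25 on the log2 scale, with adjusted p of 0.0409 and 0.0497, and each lost its call in all 6 fits with 1 array left out. Leaving out miR-302 replicate 1, 1 of these 6 factors was called, and leaving out any 1 of the others 0 or 1.

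Of 11 products of visceral endoderm, 1 was higher and 2 lower, with a median of 0.09. The apolipoprotein genes Apom and Apoc2 changed by −1.03 ± 0.21 (SE; adjusted p = 0.0193) and −0.94 ± 0.15 (adjusted p = 0.00793), and the transcriptional coactivator gene Cited1 rose by 0.45 (adjusted p = 0.0197). The counts were the same without miR-302 replicate 1, and without any 1 of the others 0 higher and 1 lower. Of 6 parietal endoderm genes, Fst, which encodes the activin antagonist follistatin, rose from 6.20 ± 0.07 (SD, n = 3) to 6.81 ± 0.10 (adjusted p = 0.00461) and the other 5 were not called; the 6 differences ran from 0.13 to 0.62, with a median of 0.17. Of the 6, 3 were higher without miR-302 replicate 1.

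The basement membrane genes were left out of the 9 genes but belong to the same layer. Of 9, 3 were higher and none lower, with a median log2 difference of 0.59. They are the laminin chain genes Lamb1 and Lama1 and the perlecan gene Hspg2, which rose by 1.87 ± 0.10, 1.17 ± 0.17 and 0.59 ± 0.07 (SE; adjusted p = 0.000305, 0.0064 and 0.00397). The collagen IV gene Col4a1 was 6.74 ± 0.11 and 7.63 ± 0.55 and missed the threshold (adjusted p = 0.057). Of the 9, 5 were higher without miR-302 replicate 1.

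Among close relatives of the lineage factors, Gata2 and Gata3 rose and Sox18 fell, while Gata1 and Gata5 were not called. Gata3, a trophectoderm factor, went from 6.16 ± 0.16 (SD, n = 3) to 7.64 ± 0.17 (adjusted p = 0.000952). Gata2 read 7.53, 7.49 and 7.63 in control cells and 8.16, 10.06 and 10.22 with miR-302 (log2 difference 1.93, adjusted p = 0.0465). Its call was kept in 1 of the 6 fits with 1 array left out, that without miR-302 replicate 1, where the difference was 2.59. Sox18, the remaining SOX F gene and a factor of endothelial cells, changed by −0.64 ± 0.09 (SE; adjusted p = 0.0048).

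The machinery around megalin moved in both directions. Of 12 measured partners of receptor endocytosis, 4 were higher and 3 lower, with a median of 0.16. Clcn5, an endosomal chloride transporter that megalin uptake in the kidney depends on, rose from 7.74 ± 0.10 (SD, n = 3) to 9.19 ± 0.45 (adjusted p = 0.0065), and Lrpap1, the chaperone of the LDL receptor family, from 9.82 ± 0.03 to 10.41 ± 0.18 (adjusted p = 0.0109). The clathrin adaptor subunit gene Ap2b1 rose by 0.37 (adjusted p = 0.0138), and Dab1, the neuronal relative of Dab2, changed by −0.64 (adjusted p = 0.0194). Without miR-302 replicate 1 the counts were 5 and 3, and without any 1 of the others 1 or 2 higher and 0 to 2 lower. Of 8 measured receptors of the LDL receptor family other than Lrp2, none was higher and 2 were lower, with a median of −0.09. Sorl1, a sorting receptor, changed by −1.28 ± 0.10 (SE; adjusted p = 0.000849). Lrp1, the broad scavenger receptor of the family, read 9.07, 8.90 and 8.98 in control cells and 8.52, 7.45 and 7.36 with miR-302 (adjusted p = 0.0357). Of the 8, 3 were lower without miR-302 replicate 1 and 1 without any 1 of the other arrays. The call of Lrp1 held only without miR-302 replicate 1 among the fits with 1 array left out.

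Signals toward these genes were measured as well. None of 6 PDGF ligands and other PDGF receptor genes was called (limma). The smallest p was that of Pdgfb, at 0.0354 before adjustment and 0.131 after it, the only 1 of the 6 under 0.05 unadjusted. The miR-302 arrays read 6.10, 7.35 and 7.19, the first of them inside the control range (mean 6.07 ± 0.08, SD, n = 3). Without miR-302 replicate 1, 1 gene of this list was higher and 1 lower. Of 6 measured genes of FGF input, Fgfr2 was called: this FGF receptor, which primitive endoderm precursors and trophectoderm share, gave 7.45, 7.42 and 7.55 in control cells and 9.13, 9.44 and 9.56 with miR-302, 3.74-fold higher (adjusted p = 0.000427). Fgf4, its ligand in the inner cell mass, was 11.81 ± 0.07 (SD, n = 3) and 11.65 ± 0.44 (adjusted p = 0.676). Without miR-302 replicate 1, 1 gene of the FGF list was also lower. Of 8 epiblast factors, Klf2 was lower by 0.82 ± 0.17 (SE; adjusted p = 0.0218), none was higher and the median was −0.16. Without miR-302 replicate 1, 3 of the 8 were lower, and without any 1 of the others none.

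**Figure D4:**
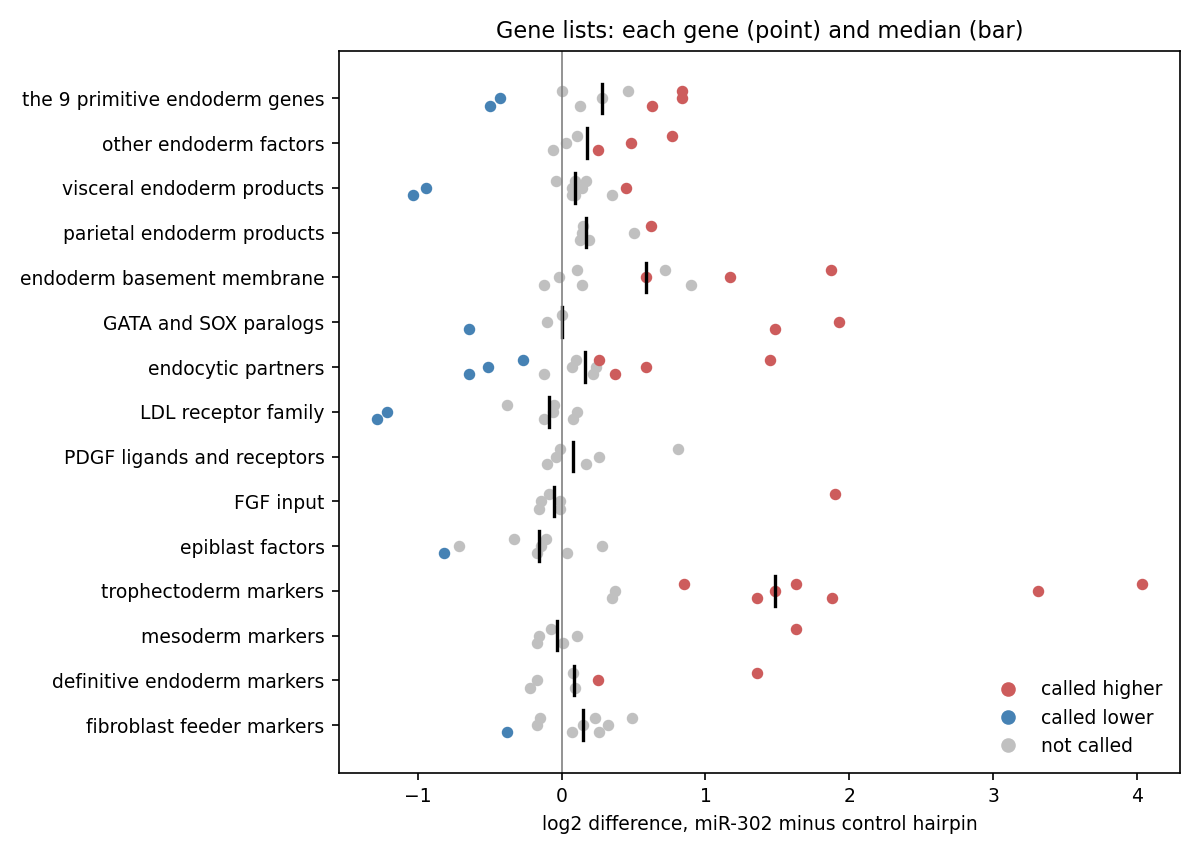
Log2 difference of every measured gene of the 9 primitive endoderm genes and of 14 further lists, miR-302 minus control hairpin, with black bars at the median of each list. The 9 genes spread from −0.50 to 0.84, while trophectoderm markers lie between 0.35 and 4.03.

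Markers of other cell types that can express some of the 9 genes were summed over their lists. Of 9 trophectoderm markers, 7 were higher and none lower, and their mean log2 level was 6.47 to 6.63 on the control arrays and 7.72 to 8.50 with miR-302. All 9 of them were higher without miR-302 replicate 1, where 24.3% of all genes were called in either direction. Of 9 measured fibroblast markers, none was higher and Thy1 was lower (adjusted p = 0.0349), with mean levels of 5.16 to 5.24 and 5.26 to 5.38; Dcn and Col1a1 differed the other way, by 0.32 and 0.49, with a p of 0.0201 and 0.0352 before adjustment and 0.0902 and 0.131 after it (limma). Of 6 measured mesoderm markers, Hand1, also a trophoblast factor and in the trophectoderm list, was higher, by 1.63. The mean levels were 5.75 to 5.78 in the controls and 5.83 to 6.13 with miR-302. Tbx6 and Mixl1 were lower by a difference of −0.16 and −0.17, without a call, and the median of the list was −0.03. Of 6 definitive endoderm markers, Eomes, also in the trophectoderm list, and Foxa2 were higher. The mean levels were 6.04 on each control array and 6.21 to 6.32 with miR-302. Gsc and Mixl1 differed the other way, by −0.22 and −0.17, without a call, and the median log2 difference of this list was 0.08. When miR-302 replicate 1 was dropped, 2 fibroblast markers were lower and 1 higher, and 2 mesoderm markers were higher. Without any 1 of the other arrays, or with the replicate number as a block, no fibroblast marker was lower, so that Thy1 lost its call, and 0 or 1 was higher. In each of these fits, that without miR-302 replicate 1 included, 1 definitive endoderm marker was higher. The values are never 0 on this scale, so no marker can be called absent. The part of such cells in the changes of Pdgfra, Lrp2 and Dab2 was not tested.

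For each of the 5 called genes the genes with the most similar profile were found, as the smallest root mean square difference of the 6 values after each gene was centred on its own mean. Nearest to Lrp2 were Ano3 (0.043 on the log2 scale) and Map7d3 (0.062). Pea15a (0.066) and Shisa4 (0.073) lay nearest to Pdgfra. For Dab2 they were Homer2 (0.045) and Hacd1 (0.055), the latter not itself called. Gata4 was closest to Rhoh (0.037) and Pnck (0.044), and Cubn to Hvcn1 (0.026) and Tnpo1 (0.028). None of the 9 genes was among these neighbours of another.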

How the data were processed

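Total RNA was measured on single-colour arrays with biotin label, per the labels' protocols. The authors deposited values made with RMA, taken here as log2 expression, per the submitters' processing notes, a method that makes the distributions of arrays alike, so a shift of all genes together is not visible. Which RMA version, log base and build were used is not given in the sources used here. Array medians were 5.60 to 5.62.

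Of 33649 rows, 23521 carry 1 gene in the platform annotation, 1814 several and 8314 none. The highest of several rows stood for a gene, leaving 22180 genes, of which 21994 matched RefSeq by Entrez identifier. Dgcr8 shares its row with another gene and was not analysed here.

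Groups came from the sample titles. limma 3.58.1 in R 4.3.3 (lmFit, eBayes, two-sided, threshold 0.05 after Benjamini-Hochberg adjustment over all genes) was fitted to all 6 arrays. Intervals are 95%. The p-values set the group difference against the spread between these samples, moderated over all genes. The fit was tested on simulated data. The members and lists were chosen with earlier results of these data known. Genes named are the 9, at most 4 genes a list by smallest p, and the 2 nearest profiles of each called gene, passing over provisional models; Nanog, Pou5f1 and Gata5 lie outside this rule and were named after their values were seen. Alternatives were a replicate block, leaving out each array, a level filter, a trended robust prior, median centring, quantile normalization, other uses of rows, array weights and a 1.5-fold threshold. Figures used matplotlib 3.10.9 in Python 3.11.15.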

Additional observations from a re-analysis of the deposited data

How the results depend on the processing

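Pdgfra, Lrp2 and Cubn kept direction and call under every alternative in which they were tested except a required fold change of at least 1.5 (limma treat), under which none of the 9 genes was called, 0 higher and 0 lower, with an unadjusted p of 0.0193 for Lrp2 alone under 0.05; over all genes 101 were then higher and 114 lower. Dab2 lost its call also in 5 fits with 1 array left out, and Gata4 in 5 such fits, under quantile normalization (adjusted p = 0.0531) and with the replicate block (adjusted p = 0.0631), so that 1 of the 9 genes was lower in the last 2. Over all genes, 1708 were higher and 1900 lower with quantile normalization, and 964 higher and 1329 lower with the replicate block. The numbers in the titles were not taken to pair the samples: deviations of same-numbered samples from their group means correlated by 0.01 to 0.02 across genes, and not every sample correlated best with its own number. With 1 array left out, 685 to 2484 genes were higher and 1043 to 2911 lower over all genes, and 1 to 2 of the 9 genes were lower. After genes below the median level were left out, Lrp2 (1 higher) and Gata4 (1 lower) were the genes of the 9 that remained tested, and both were called. Over all genes of that fit, 1815 were higher and 2479 lower. Array weights called 2617 genes higher and called Gata6 (adjusted p = 0.0499). Sox17, never called, turned sign to −0.02 with arrays centred on their medians, −0.03 with quantile normalization and −0.03 with array weights, and ranged from −0.06 to 0.04 with 1 array left out. The cause of these changes was not tested. With 3 arrays a group and 7 of the 9 genes below the median level, signal over background limits what can be read for them.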
